A study of Arabidopsis thaliana with 12 samples.

Results

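The genes described here are the 4 alpha-expansin genes EXPA4 (AT2G39700), EXPA8 (AT2G40610), EXPA15 (AT2G03090) and EXPA18 (AT1G62980) of Arabidopsis thaliana. They were chosen by name, with earlier results of these data known, and each had exactly 1 probe set. So 4 of the 13350 genes that could be read by name are members, and 4 of the 22746 non-control probe sets on the array. All 4 were bright enough to be tested. Signals come from 12 arrays in 4 groups of 3. The first group was the apex (SAM), the part with the shoot meristem, cut with a knife from plants given 50 µM L-AOPP with 10 nM IAA. The second was the SAM of plants grown on 50 µM L-AOPP alone. The third was the SAM of mock plants, and the fourth was whole mock plants, the mock treatment being DMSO at 0.1%. Every plant was Col-0 with no transgene or mutation given, and was grown from seed on MS agar plates at 21 °C in 24 h light. L-AOPP is named in the series text as a small molecule that inhibits the synthesis of auxin, and IAA is the chief auxin that plants make. Whole plants were frozen undissected and so include roots. No DMSO content is given for the L-AOPP plates. Plant age is 4 days in the sample labels and 7 days in the series text.

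Expansins are secreted proteins that let the walls of plant cells slip and extend, above all at the acidic wall pH that auxin brings about through proton pumps of the plasma membrane. They have no known wall-cutting activity, and are thought to loosen the contacts between cellulose and the polymers around it. The family has alpha-expansins (EXPA), beta-expansins (EXPB) and 2 groups of expansin-like genes (EXLA and EXLB). Single genes of the family are used in different organs. EXPA18 and its close relative EXPA7 are known in Arabidopsis as genes of root hair cells.

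A value is the linear signal intensity of a probe set on the scale deposited, which is common to the 12 arrays. Levels were not compared between probe sets, since each binds its target with its own strength. Differences are on the log2 scale from limma over 15922 probe sets, with the Benjamini-Hochberg adjustment over all of them. The word called stands for an adjusted p below 0.05. The labels do not say whether replicates were grown separately, so the spread behind each p-value is that of these 12 arrays and may be technical. In such tissue samples, fewer cells of a type and less RNA per cell cannot be told apart.

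The arrays of a group had Spearman correlations of 0.982 to 0.991 over the probe sets tested. The 4 genes with a probe set of their own on the shoot meristem and boundary list (CLV3, UFO, LAS and PHV) were called higher in mock SAM than in whole plants, as were 42.6% of all probe sets. The other 11 of the 15 genes on that list were not analysed here. The summed signal of CLV3, UFO, LAS and PHV was 1461.9 to 1786.5 with L-AOPP and IAA, 1343.9 to 1389.1 with L-AOPP, 1534.4 to 2020.8 in mock SAM and 340.8 to 408.7 in whole plants. That of 6 green leaf genes was 39792 to 44969 over all SAM arrays, against 105832 to 120982 in whole plants. None of the 11 genes on the root list could be read by name. Mock SAM replicate 3 had a 25S rRNA control signal of 164.1, while the other 11 arrays had 5170 to 10331. The GAPDH ratio (signal of the 3' control over that of the 5' control, in log2), a sign of RNA integrity, was 1.29 ± 0.06 with L-AOPP and IAA, 1.5 ± 0.12 with L-AOPP, 1.78 ± 0.36 in mock SAM and 0.97 ± 0.03 in whole plants (SD, n = 3 each).

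EXPA4 had its lowest SAM levels where L-AOPP and IAA were given together. Its signals were 794.3, 778.4 and 789.9 with L-AOPP and IAA, 1019.2, 1001.2 and 1027.4 with L-AOPP, and 1190.5, 1074.6 and 1589.4 in mock SAM. The 3 SAM groups did not overlap, and the arrays of each L-AOPP group lay within a few percent of each other, with a coefficient of variation of 1.04% with IAA and 1.32% without it, against 21.0% in mock SAM. Whole plants gave 892.4, 983.9 and 896.8, between the 2 L-AOPP groups.

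EXPA4 fell with L-AOPP and IAA relative to mock (log2 -0.69 ± 0.11 SE, 95% interval -0.93 to -0.44, limma adjusted p 0.00608). It was the only 1 of the 4 members called in this comparison, in which 3.04% of all probe sets were called, 1.82% as lower. For 11% of probe sets all treated arrays lay below all mock arrays, and for 9.81% all lay above. The call was present without any 1 of the 6 arrays (adjusted p 0.00291 to 0.0229). Without mock SAM replicate 3, the array with the highest EXPA4 signal, the difference was -0.52 (adjusted p 0.0131). The GAPDH ratio was lower with L-AOPP and IAA than in mock SAM (values above), and with that ratio as a covariate the difference was -0.36 and was not called (adjusted p 0.525). The ratios of these groups did not overlap, so that fit cannot tell the ratio from the group.

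The intermediate L-AOPP arrays did not pass on either side. L-AOPP against mock gave -0.32 ± 0.11 (95% interval -0.56 to -0.08, limma adjusted p 0.162), and L-AOPP with IAA against L-AOPP gave -0.37 ± 0.11 (-0.61 to -0.12, adjusted p 0.186). Without mock SAM replicate 2 the first of these was called (-0.44, adjusted p 0.0452), and without mock SAM replicate 3 it was -0.15 (adjusted p 0.451). With the GAPDH ratio as a covariate EXPA4 was at -0.14 in L-AOPP against mock (adjusted p 0.733) and at -0.22 with IAA added to L-AOPP (adjusted p 0.383). The 3 SAM comparisons share arrays, so their values are set side by side and are not independent.

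**Figure D1:**
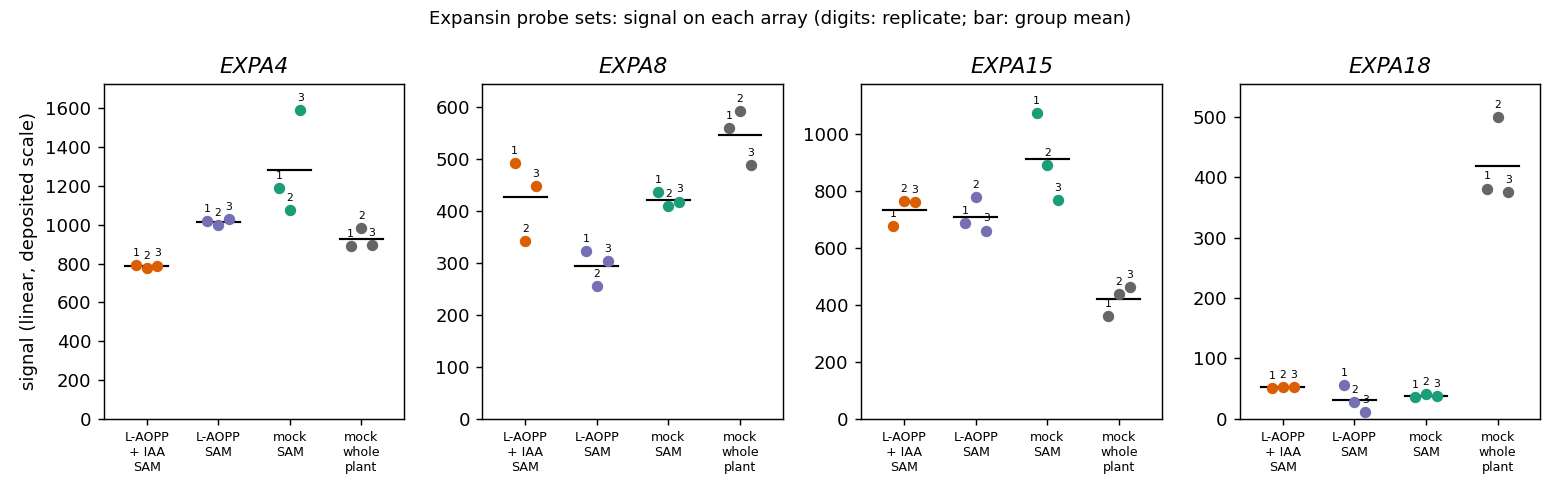
Signal (linear, deposited scale, axes from 0 and different for each gene) of EXPA4, EXPA8, EXPA15 and EXPA18 on each of the 12 arrays, by group, with the replicate number beside each point and a bar at the mean of 3. EXPA4 lies at 778.4 to 794.3 with L-AOPP and IAA, below every other group, and EXPA18 lies at 11.6 to 55 on all SAM arrays, against 376 to 499.1 in whole plants.

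EXPA8 was lowest in the SAM with L-AOPP alone. Its signals were 491.7, 342.6 and 447.6 with L-AOPP and IAA, 322.1, 255.5 and 302.7 with L-AOPP, and 436.4, 409.3 and 418.1 in mock SAM. All 3 arrays with L-AOPP alone lay below all arrays of the other SAM groups, and the arrays with IAA spanned those of mock. Replicate 2 was the lowest array of each SAM group.

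None of the SAM differences of EXPA8 was called. The summed meristem markers were also lower with L-AOPP alone than in mock SAM, by the ranges given above, and their part in the EXPA8 difference was not tested. Most of that sum was PHV, with a mean of 1103 with L-AOPP and 1322 in mock SAM. None of the 4 markers was called in that comparison (limma adjusted p 0.0688 to 0.559). All 4 markers had L-AOPP arrays wholly below mock, as did 12.3% of all probe sets, and their median difference was -0.67. An unadjusted p below 0.05 was found for 3 of these markers, against 16.8% of all probe sets. For EXPA8, L-AOPP against mock gave -0.53 ± 0.14 SE (95% interval -0.82 to -0.24), a 1.44-fold lower level, with a limma adjusted p of 0.0525, just above the threshold. It was called in 3 of 11 alternatives. These were a pseudocount (-0.49, adjusted p 0.0482), the lowest 50% of probe sets left out (0.0453) and only the 2 groups fitted (0.0417). It was called in no other alternative, such as the fit without the trend (0.103) or with the GAPDH ratio as a covariate (-0.52, 0.245). Without any 1 array it was not called (0.0676 to 0.215). In L-AOPP against mock 0 of the 4 members were called by limma, and 2.56% of all probe sets were called. An unadjusted p below 0.05 was found for 3 of the 4 (EXPA4, EXPA8 and EXPA15) and for 16.8% of all probe sets. Among all probe sets 12.3% had L-AOPP arrays all below mock arrays.

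L-AOPP with IAA against L-AOPP gave 0.53 ± 0.14 for EXPA8 (95% interval 0.24 to 0.82, limma adjusted p 0.093). It was called without L-AOPP with IAA replicate 2 (0.68, adjusted p 0.0298). In this comparison 0 of the 4 members were called by limma, and 0.86% of all probe sets were called. An unadjusted p below 0.05 was found for 3 of the 4 (EXPA4, EXPA8 and EXPA18) and for 10.7% of all probe sets. All arrays with IAA lay above those without for 9.36% of probe sets and below them for 9.06%. L-AOPP with IAA against mock was 0.00 ± 0.14 (-0.28 to 0.29, adjusted p 0.992).

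With added IAA the mean of EXPA4 was lower and that of EXPA8 higher. The log2 ratio of EXPA4 to EXPA8 within an array was 0.69 to 1.18 with L-AOPP and IAA, against 1.66 to 1.97 with L-AOPP, a difference of -0.90 with no overlap. In the exact two-sided permutation test, p was 0.1, the smallest that 3 arrays against 3 allow, and 0.2 after adjustment over the 6 pairs of members. The ratios of EXPA4 to EXPA15 (-0.42) and of EXPA4 to EXPA18 (-1.37) also did not overlap, with the same exact p. The ratio to EXPA18 rests on dim EXPA18 signals, which were 55, 27 and 11.6 with L-AOPP. For L-AOPP against mock, the ratios of all 6 pairs overlapped between the groups (exact permutation p 0.3 to 1). For L-AOPP with IAA against mock, EXPA4 to EXPA8, EXPA4 to EXPA18, EXPA8 to EXPA18 and EXPA15 to EXPA18 did not overlap. Between mock SAM and whole plants only EXPA4 to EXPA15 overlapped. The share of other gene pairs without overlap was not computed. With 3 arrays a group the permutation test cannot pass the threshold.

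EXPA15 was the member whose highest level was in mock SAM and whose lowest was in whole plants. It gave 676, 765 and 762.1 with L-AOPP and IAA, 686.4, 778.5 and 661.5 with L-AOPP, and 1075.4, 892.7 and 769.8 in mock SAM. The L-AOPP arrays overlapped mock SAM through L-AOPP replicate 2. Those with IAA lay just under the lowest mock array, as for 11% of all probe sets. Neither difference from mock was called: -0.35 ± 0.13 with L-AOPP (95% interval -0.63 to -0.08, limma adjusted p 0.163) and -0.30 ± 0.13 with L-AOPP and IAA (-0.57 to -0.03, adjusted p 0.225). Without mock SAM replicate 1, the array with the highest EXPA15 signal, these were -0.23 and -0.18. Added IAA gave 0.05 ± 0.13 against L-AOPP (-0.22 to 0.32, adjusted p 0.939).

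EXPA18, the root hair gene, was near the dim end of the array in every SAM group. Its signals were 50.3, 52.5 and 52.5 with L-AOPP and IAA, 55, 27 and 11.6 with L-AOPP, and 35.2, 40.7 and 37.8 in mock SAM. The 20th percentile of all signals was 19.4, and L-AOPP replicate 3 lay below it. The L-AOPP arrays spanned those of both other SAM groups, and the arrays with IAA lay above those of mock, as for 9.81% of all probe sets. L-AOPP against mock was -0.55 ± 0.40 (-1.40 to 0.30, limma adjusted p 0.528). It was -1.10 without L-AOPP replicate 1, 0.03 without L-AOPP replicate 3, -0.22 with a pseudocount of 28.4 and -0.83 with the GAPDH covariate. L-AOPP with IAA against L-AOPP was 1.00 ± 0.40 (0.15 to 1.86, adjusted p 0.349). This was 1.55 without L-AOPP replicate 1 (adjusted p 0.086), 0.43 without L-AOPP replicate 3 and 0.49 with the pseudocount. L-AOPP with IAA against mock was 0.45 ± 0.40 (-0.40 to 1.3, adjusted p 0.601), and it turned to -0.04 with the GAPDH ratio as a covariate.

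**Figure D2:**
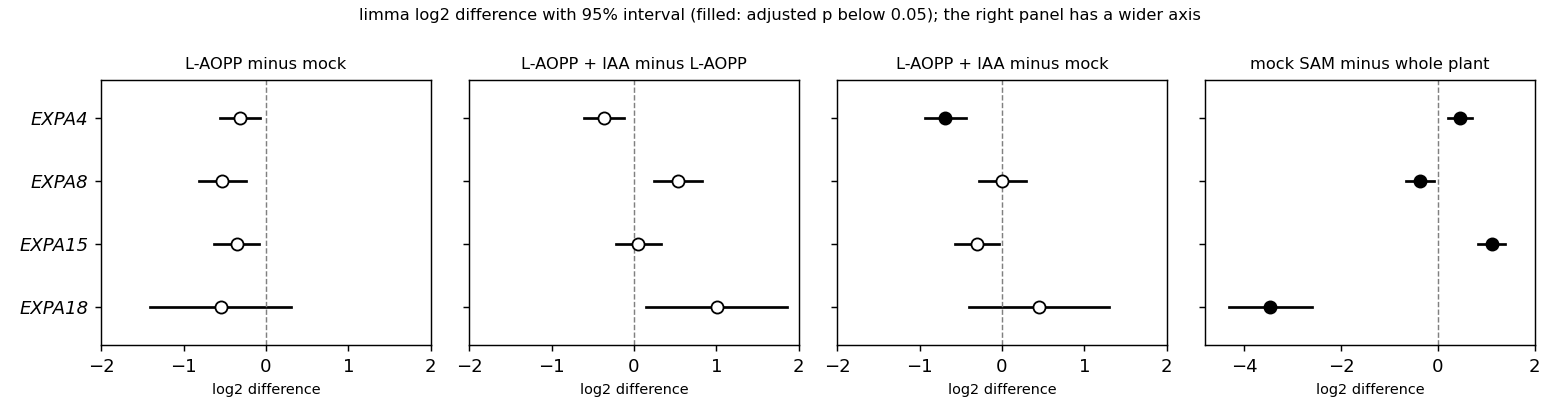
limma log2 differences (points) with 95% intervals (lines) for the 4 expansin genes in 4 comparisons. Filled points have an adjusted p below 0.05 over 15922 probe sets. EXPA4 is filled for L-AOPP with IAA minus mock (-0.69), and all 4 genes are filled for mock SAM minus whole plant, where the horizontal axis is wider.

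Mock SAM against mock whole plants separated the 4 genes into 2 that were higher and 2 that were lower in the apex. All 4 were called, in a comparison in which 67.6% of all probe sets were called, 42.6% higher and 25% lower, so a call by itself sets no gene apart here. EXPA15 averaged 913 ± 154 in mock SAM and 421 ± 53.3 in whole plants (SD, n = 3 each), a 2.16-fold higher level (log2 1.11 ± 0.13 SE, limma adjusted p 1.41e-06). Whole plants gave 361.7, 437.4 and 464.5, below every SAM array. SAM arrays all lay above whole plants for 43.2% of probe sets, and 12.2% had a larger positive difference than EXPA15.

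EXPA4 averaged 1285 ± 270 in mock SAM and 924 ± 51.6 in whole plants, a 1.37-fold difference (log2 0.46 ± 0.11, limma adjusted p 0.00233) with no overlap. Over all probe sets the median difference was 0.21, and 0.07 after median centring, with which EXPA4 was still called (0.32, adjusted p 0.0293). Without mock SAM replicate 3 the difference was 0.29 (adjusted p 0.00777). The GAPDH ratio differed between these groups as given above, and a fit with it as a covariate put EXPA4 at -0.08 (adjusted p 0.754). The part of RNA integrity in the EXPA4 difference was not tested beyond that fit.

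EXPA8 averaged 421 ± 13.8 in mock SAM and 547 ± 53.0 in whole plants (log2 -0.37 ± 0.14, limma adjusted p 0.0239). The whole plant arrays, at 560.2, 591.7 and 488.3, all lay above mock SAM, and 26.2% of all probe sets had SAM arrays all below whole plants. EXPA8 was no longer called when mock SAM replicate 2 was left out (-0.35, adjusted p 0.0631), without whole plant replicate 1 (-0.35, 0.0626) or 2 (-0.31, 0.0894), and with the GAPDH covariate (-0.41, 0.279). In each of these the SE was larger, at 0.15 to 0.29. The difference was larger after median centring (-0.51) and quantile normalization (-0.53).

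EXPA18 averaged 37.9 ± 2.75 in mock SAM and 419 ± 69.6 in whole plants, a level 10.97 times lower (log2 -3.46 ± 0.40, limma adjusted p 1.57e-06). Whole plants gave 381.2, 499.1 and 376, and every SAM array of any treatment was at 55 or below. Only 1.04% of the probe sets tested were lower still in this comparison. The call was present without any 1 array and with the GAPDH covariate (-2.64, adjusted p 0.0201).

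By mean level, EXPA8 and EXPA18 had the same order of groups, and EXPA4 and EXPA15 each had another. Within the SAM the shared order rests on differences that were not called. For EXPA8, L-AOPP with IAA against mock was 0.00 (limma adjusted p 0.992) and changed direction in 5 recomputed fits. For EXPA18, L-AOPP against mock was 0.03 without L-AOPP replicate 3. The order for EXPA4 was mock SAM, L-AOPP, whole plants, then L-AOPP with IAA. No neighbours in that order differed by a called amount (L-AOPP against whole plants 0.14 ± 0.11, adjusted p 0.301, and L-AOPP with IAA against whole plants -0.23 ± 0.11, adjusted p 0.0878). For EXPA8 it was whole plants, L-AOPP with IAA, mock SAM, then L-AOPP. Of these neighbours, L-AOPP with IAA differed from whole plants (-0.37 ± 0.14, limma adjusted p 0.0256), although replicate 1 with IAA overlapped the whole plant arrays. For EXPA15 the order was mock SAM, L-AOPP with IAA, L-AOPP, then whole plants, and L-AOPP differed from whole plants (0.76 ± 0.13, adjusted p 8.1e-05). For EXPA18 it was whole plants, L-AOPP with IAA, mock SAM, then L-AOPP, and L-AOPP with IAA differed from whole plants (-3.00 ± 0.40, adjusted p 7.56e-06). In these 2 comparisons with whole plants, 67% of all probe sets were called for L-AOPP and 67.1% for L-AOPP with IAA. Of the pairs that are not neighbours, EXPA8 with L-AOPP was at -0.90 ± 0.14 (adjusted p 2.66e-05), EXPA18 with L-AOPP at -4.01 ± 0.40 (3.35e-07) and EXPA15 with L-AOPP and IAA at 0.81 ± 0.13 (4.23e-05).

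EXPA7, the other root hair expansin, was the only 1 of 31 genes on the root hair list that could be read by name. It was too dim on average to enter the test, with signals of 20.4, 8.2 and 19 with L-AOPP and IAA, 10.5, 18.4 and 4.3 with L-AOPP, 10.2, 3.6 and 19.6 in mock SAM, and 245, 286.8 and 197.9 in whole plants. On 7 of the 9 SAM arrays it lay below 19.4. With that value as a floor it was at least 12.4-fold lower in mock SAM than in whole plants (log2 -3.63), a bound given with no test. EXPA18 stayed above 19.4 on all 3 mock SAM arrays, where EXPA7 did so on 1. No detection calls come with the signals, and a dim signal does not show that a transcript is absent.

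**Figure D3:**
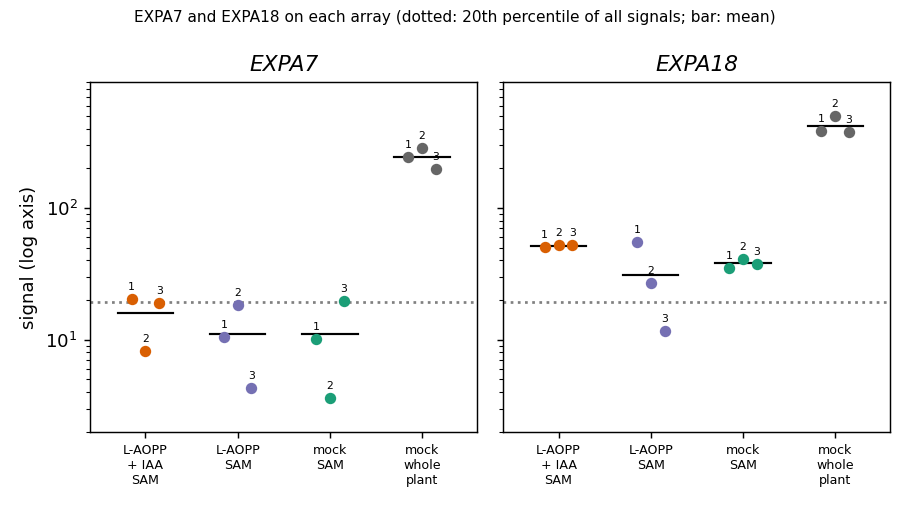
Signal (log axis) of EXPA7 and EXPA18 on each array, by group, with replicate numbers and a bar at the mean of 3. The dotted line is the 20th percentile of all signals, 19.4. Both genes are at least 197.9 on every whole plant array and at most 55 on every SAM array.

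The other expansin genes were read for comparison. Of 36 family names looked for, 18 had a probe set of their own, the 4 members included, and 12 of those were tested. In L-AOPP against mock 0 of 12 were called with limma, where 2.56% of all probe sets were called. The family median was -0.34, against -0.01 over all probe sets. Those with an unadjusted p below 0.05 were EXPA4, EXPA8 and EXPA15, 3 of 12, against 16.8% of all probe sets. The L-AOPP arrays lay wholly below mock for 6 of 12: EXPA4, EXPA8, EXPA16, EXPB1, EXPB3 and EXLA1, against 12.3% of all probe sets. The largest of the other differences was that of EXLA1 (-0.64 ± 0.30, adjusted p 0.303), with signals of 129.1, 129.4 and 104.4 with L-AOPP, against 184.8, 167.3 and 214.2 in mock SAM.

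In L-AOPP with IAA against L-AOPP, 0 of 12 family probe sets were called with limma, against 0.86% of all probe sets. An unadjusted p below 0.05 was found for 6 of the 12, against 10.7% of all probe sets. The family median was 0.24, against 0.00 over all probe sets. EXPA8 and the expansin-like EXLA2 (0.58 ± 0.18, adjusted p 0.184) were the 2 whose arrays with IAA all lay above L-AOPP, against 9.36% of all probe sets. EXPA4 was the 1 whose arrays all lay below, against 9.06%. EXLB1 had the largest negative difference (-0.89 ± 0.22, adjusted p 0.0914), with signals of 221.5, 149.3 and 119.5 with L-AOPP and IAA, against 332.2, 343.7 and 218.3 with L-AOPP. So EXPA4 and EXLB1 had lower means with IAA, and the other 10 had higher means, from 0.01 for EXPB1 to 1.00 for EXPA18. In L-AOPP with IAA against mock, 1 of 12 was called, EXPA4, and 3.04% of all probe sets were called. EXLB1 had a larger fall that was not called (-0.74 ± 0.22, limma adjusted p 0.0861). The treated arrays all lay below mock for 3 of 12 (EXPA4, EXPA15 and EXLB1), against 11% of all probe sets. They all lay above mock for 1, EXPA18, against 9.81%.

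Between mock SAM and whole plants, 5 of 12 family probe sets were higher, 6 were lower and EXLB1 was not called. Over all probe sets 42.6% were called higher and 25% lower, so the counts alone do not set the family apart. The largest rise was that of EXPA20 (log2 1.94 ± 0.19, limma adjusted p 3.12e-07), at 422.7, 362.6 and 427.2 in mock SAM, against 89.7, 85.3 and 152.7 in whole plants. EXPA15 came next, then EXLA2 (0.69 ± 0.18), the beta-expansin EXPB3 (0.62 ± 0.16) and EXPA4. After EXPA18 the largest fall was that of EXPA9 (-2.76 ± 0.17, adjusted p 1.61e-09), at 100.3, 77.4 and 73.6 in mock SAM, against 625.7, 561.4 and 503.3 in whole plants. EXPB1 (-1.48 ± 0.24), EXLA1 (-1.32 ± 0.30) and EXPA16 (-0.89 ± 0.26) were lower too. Of the 6 dim family members, EXPA21, EXPA24, EXPB2, EXPB5 and EXLA3 had no signal above 61.6 on any array, and the sixth was EXPA7.

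**Figure D4:**
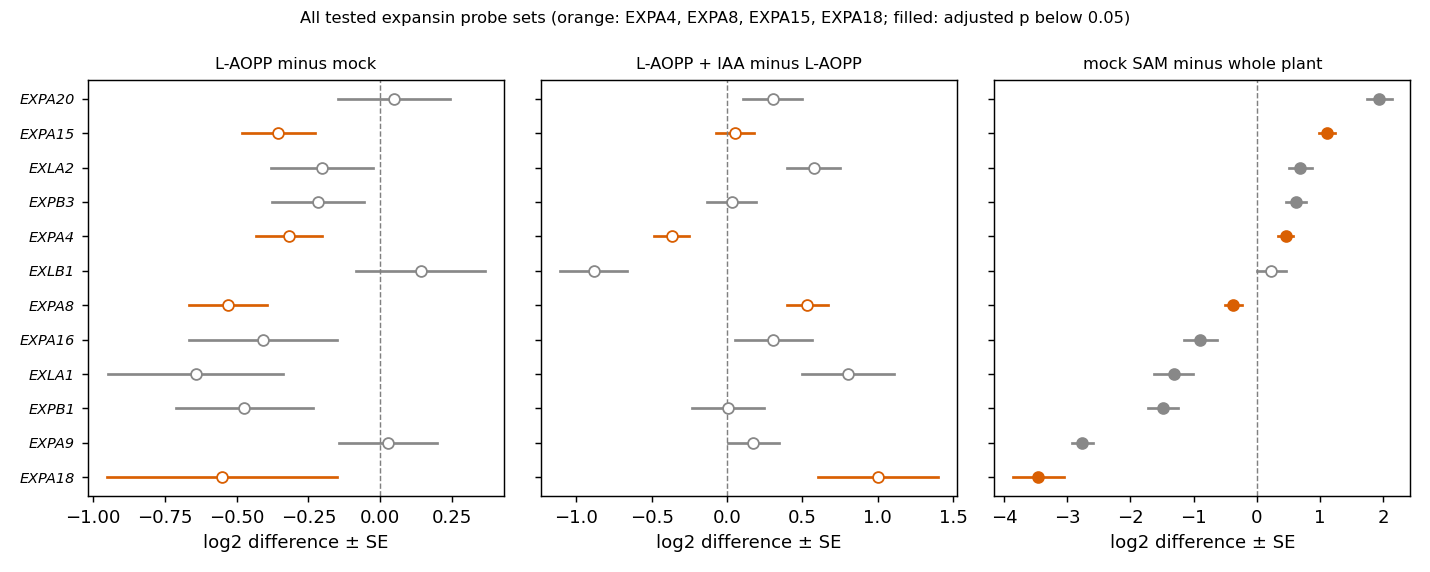
limma log2 difference ± SE for the 12 tested expansin probe sets in 3 comparisons, ordered by the difference between mock SAM and whole plants. Orange marks EXPA4, EXPA8, EXPA15 and EXPA18, filled points have an adjusted p below 0.05, and the horizontal axes differ. No point is filled in the panels for L-AOPP minus mock and L-AOPP with IAA minus L-AOPP. For mock SAM minus whole plant 11 of 12 are filled, where 67.6% of all probe sets were called.

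Other genes of wall extension gave the following counts. Of 6 tested XTH genes, whose enzymes cut and rejoin the xyloglucan that ties cellulose together, 0 were called in L-AOPP against mock (0 at an unadjusted p below 0.05), with a median of -0.16. Over all probe sets 2.56% were called in that comparison. With IAA added to L-AOPP, 1 of 6 rose, XTH16 (0.81 ± 0.09, limma adjusted p 0.00146), where 0.86% of all probe sets were called. An unadjusted p below 0.05 was found for 5 of the 6, all higher, and for 10.7% of all probe sets. The median of the 6 was 0.63, against 0.00 over all probe sets. XTH16 had a called difference from mock as well (0.92 ± 0.09, adjusted p 0.000205). Between mock SAM and whole plants 2 of the 6 were higher, with XTH32 at 1.65 ± 0.10, and 4 were lower, with XTH18 at -4.57 ± 0.73 and XTH19 at -3.41 ± 0.20. Over all probe sets 42.6% were called higher and 25% lower there. Of the 3 tested genes on the cellulose and wall growth list, COB was lower in mock SAM (-0.63 ± 0.08). The receptor kinase genes FER and THE1 were called in none of the 4 comparisons. The 11 proton pump genes on the list were not analysed here.

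The genes most like each member were ranked by Pearson correlation of log2 signal among 8771 other tested genes with a probe set of their own. These correlations describe arrays that share one scaling and 4 groups. EXPA8 stood closest to FATB (AT1G08510), the gene of an acyl carrier protein thioesterase that releases saturated fatty acids in the plastid, with r = 0.992 over 12 arrays and 0.993 over the 9 SAM arrays. FATB gave 1355.9, 1174.7 and 1284.1 with L-AOPP and IAA, 1133.6, 1020.3 and 1101.8 with L-AOPP, 1308.6, 1237 and 1283 in mock SAM, and 1468.7, 1490.7 and 1320 in whole plants. Replicate 2 was the lowest array of FATB in each SAM group, as it was for EXPA8. Without any 1 array, r over 12 arrays was 0.988 or higher. For the other genes named here the lowest r without 1 array was between 0.675 (AT3G10540 with EXPA18, SAM arrays) and 0.983 (AT3G30390 with EXPA18, 12 arrays), and for AT1G55265 with EXPA4 it was 0.731. Next to EXPA8 came BZIP61, a transcription factor gene (0.940), and AT3G02460 (0.923) over 12 arrays, and AT1G14210 (0.951) and AT1G12080 (0.939) over the SAM arrays.

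**Figure D5:**
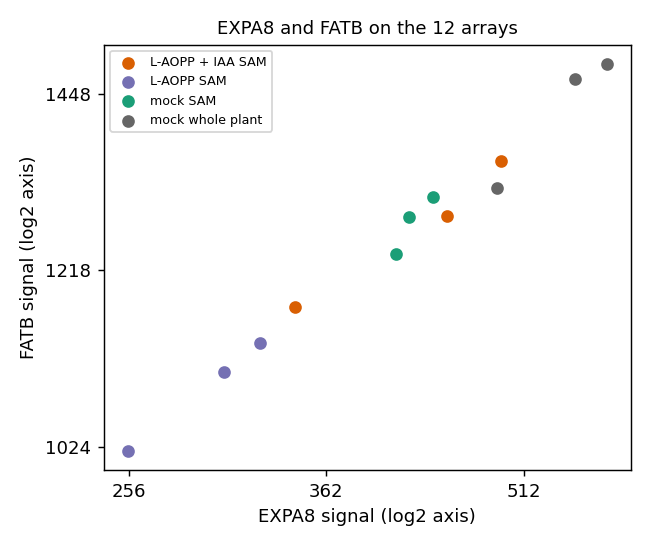
Signal of FATB against signal of EXPA8 on the 12 arrays (both axes log2), coloured by group. The points run close to a line (Pearson r = 0.992 on log2 values), with the 3 L-AOPP arrays at the low end of both genes.

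EXPA15 was closest to AT3G15650 (r = 0.974), SAH7 (0.965) and AT1G53860 (0.962) over 12 arrays, where 422 genes had an r above 0.9, and to AT2G44940 (0.967), AT1G14730 (0.962) and AT2G23070 (0.946) over the SAM arrays, where 12 did. EXPA18 was closest to AT3G30390 (0.988), AT3G62280 (0.981) and AT4G25030 (0.974) over 12 arrays, where 425 genes passed 0.9. Over the SAM arrays, where 5 did, its closest genes were AT5G58640 (0.968), AT3G30390 (0.961) and AT3G10540 (0.936). EXPA18 ran from 11.6 to 55 on the L-AOPP arrays and from 35.2 to 52.5 on the other SAM arrays. Much of its spread over the SAM arrays thus came from 1 dim group. EXPA4 had no gene above 0.9 over 12 arrays, with AT1G62790 (0.893), AT1G55265 (0.892) and AT5G20660 (0.886) the closest. Over the SAM arrays 48 genes were above 0.9, led by AT5G08560 (0.962), AT3G06410 (0.960) and AT1G68430 (0.956). AT1G62790 averaged 832 ± 70.8 with L-AOPP and IAA, 1051 ± 60.7 with L-AOPP and 1186 ± 56.8 in mock SAM, the same order of the SAM groups as EXPA4. Among the members themselves the highest correlation over the SAM arrays was 0.50, between EXPA8 and EXPA18, and that of EXPA4 with EXPA8 was -0.02.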

How the data were processed

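MAS5, version not stated, made the signals, per the submitters' processing notes. The authors deposited linear signal intensity values for 22810 probe sets on 12 arrays, with no detection calls. On each array the mean without the lowest and highest 2% was 499.7 to 499.8. The 64 control probe sets and the 6824 dimmest of 22746 others (30% by mean log2) were left out, and 15922 were tested.

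Log2 values were fitted with limma 3.58.1 (R 4.3.3, lmFit, eBayes with trend) with 1 coefficient per group over 12 arrays, which leaves 8 residual degrees of freedom. Tests were two-sided. Ratios of members used exact permutation tests. The fit was tested on simulated data.

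Names came from the platform annotation of the array, which can be old: 13513 probe sets had 1 gene, 503 several and 8730 were not listed. TAIR10.1 gave locus codes for 13436. Probe sequences were not used here.

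Members and lists were chosen with earlier results of these data known. Named genes are the members, all family genes, for each member the 3 genes most like it over 12 and over 9 arrays, and up to 3 called genes of a list. Alternatives were normalization, floor, pseudocount, filter, groups fitted, trend, array weights, replicate block, GAPDH ratio and each array left out. The number of arrays, 3 a group, limits the precision.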

Additional observations from a re-analysis of the deposited data

How the results depend on the processing

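Each of the 16 differences of the 4 members was recomputed under 10 or 11 alternatives and in 6 fits with 1 array left out. Of the 268 recomputed values in all, 250 kept their direction and their side of the threshold. With the GAPDH ratio as a covariate, EXPA4 was at -0.361 in L-AOPP with IAA against mock and at -0.0783 in mock SAM against whole plants, EXPA8 was at -0.408 in mock SAM against whole plants, and EXPA18 was at -0.0443 in L-AOPP with IAA against mock. In both of these comparisons the ratios of the groups did not overlap, so the ratio and the group cannot be told apart. EXPA8 in L-AOPP against mock was called with the pseudocount (-0.49), with the lowest 50% left out and with only the groups compared (-0.53 each), and 1 family probe set was then called in place of 0. EXPA8 in L-AOPP with IAA against mock was -0.0037 with array weights. With arrays left out in turn, differences ran from -0.44 to -0.15 for EXPA4, -0.60 to -0.43 for EXPA8 and -1.10 to 0.0265 for EXPA18 in L-AOPP against mock, from 0.42 to 0.68 for EXPA8 in L-AOPP with IAA against L-AOPP, from -0.10 to 0.16 for EXPA8 in L-AOPP with IAA against mock, and from -0.45 to -0.31 for EXPA8 in mock SAM against whole plants. The cause of these changes was not tested. Family counts then ran from 0 to 1, 0 to 2, 1 to 2 and 10 to 11 in the 4 comparisons. With the GAPDH covariate they were 0 in L-AOPP with IAA against mock and 5 in mock SAM against whole plants, where 7 were called with the lowest 50% left out, since fewer were tested. EXPA18 had no value there, because it was among the probe sets left out. Over all probe sets the main counts of 408, 137, 484 and 10760 were 47, 70, 7 and 6256 with the GAPDH covariate, and without the trend 122, 23 and 175 in the SAM comparisons. With only the groups compared, 134 were called in L-AOPP with IAA against mock. Adding IAA to L-AOPP gave 66 with only the groups compared, 85 with the lowest 50% left out and 240 with array weights. With arrays left out in turn the counts were 89 to 586, 28 to 213, 169 to 531 and 10093 to 10417. Replicate numbers did not pair the arrays: deviations of same-numbered arrays correlated at -0.19 to 0.11. With the replicate block EXPA8 had the same -0.53 in L-AOPP against mock (adjusted p 0.0559), no member's call changed, and 287, 100, 357 and 10648 probe sets were called.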

Other observations

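Probe sets shared by several expansin genes were used in no comparison. The probe set of EXPA22 and EXP26 had signals of 10.9 to 16.3 with L-AOPP and IAA, 1.4 to 16.4 with L-AOPP, 4.1 to 29.4 in mock SAM and 4 to 29.1 in whole plants. That of EXPA23 and EXPA25 was at most 23.7 on any array.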
